A study of Mus musculus with 4 samples.

Results

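The 4 genes described here encode transporters of organic cations and of carnitine: Slc22a2 (OCT2), Slc22a4 (OCTN1), Slc22a5 (OCTN2) and Slc47a1 (MATE1). They were taken by name from a table of mean expression by cluster, and 4 of 4 were found among its 19609 usable gene rows. The table covers nuclei of the kidney cortex of 4 male mice of mixed strain, in 23 clusters, with 1 mouse for each condition; clusters carry numbers in the table and were named by the order of the study's marker sheets. The control mouse carried TRE-hKLF6 alone, a human KLF6 transgene that cannot be switched on without rtTA, and received no injury. The control mouse with AAI carried TRE-hKLF6 and received aristolochic acid I (AAI), a plant toxin that is taken up by the proximal tubule (PT) and damages DNA. The hKLF6OE mouse carried CAG-rtTA and TRE-hKLF6, which overexpress human KLF6 in all tissues under doxycycline, and received no injury; the hKLF6OE mouse with AAI carried the same alleles and received AAI. All mice were fed doxycycline at 200 mg/kg of diet for 1 week, AAI was 1 injection of 2 mg/kg, and kidneys were taken 24 hours after it. Ages were not given in the sources used here. With 1 mouse per condition there is no spread between mice and no test, and every difference describes these 4 mice.

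Organic cations such as creatinine, metformin and cisplatin enter proximal tubule cells from the blood side through Slc22a2 and leave into the urine through Slc47a1, which exchanges them for protons at the brush border. Slc22a5 is the sodium-dependent, high-affinity carnitine transporter that recovers filtered carnitine, the carrier that long-chain fatty acids need to enter mitochondria. Slc22a4 is its close relative and transports ergothioneine, a dietary antioxidant. In rodents, Slc22a2 is more abundant in kidneys of males, and all animals here were male. The study compared injured with normal proximal tubule cells, and mice that overexpressed KLF6, a zinc finger transcription factor induced early in kidney injury, with controls.

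In the GRCm38 annotation (GENCODE M21), Slc22a2 lies at chr17:12584132-12628488 on the plus strand. The other members lie on the minus strand of chromosome 11: Slc22a5 at chr11:53864542-53891660, Slc22a4 at chr11:53983123-54028090 and Slc47a1 at chr11:61343401-61378345. Slc22a5 and Slc22a4 are neighbours in tandem, 91.5 kb apart, and Slc22a21, another gene of the OCTN group, lies between them. The 250 bases before the RefSeq start of each SLC22 member (GRCm38.p6) are shown because KLF factors bind GC-rich letters, and KLF6 is the factor the study overexpressed. Capitals mark the GC box GGGCGG and the CACCC box CACCC, each searched on both strands, which do not overlap each other in these windows.
Slc22a2: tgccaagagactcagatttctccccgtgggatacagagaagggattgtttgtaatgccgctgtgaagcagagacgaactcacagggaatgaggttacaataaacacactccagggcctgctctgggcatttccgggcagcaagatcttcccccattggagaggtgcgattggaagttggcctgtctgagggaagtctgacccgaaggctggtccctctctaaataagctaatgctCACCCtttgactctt
Slc22a4: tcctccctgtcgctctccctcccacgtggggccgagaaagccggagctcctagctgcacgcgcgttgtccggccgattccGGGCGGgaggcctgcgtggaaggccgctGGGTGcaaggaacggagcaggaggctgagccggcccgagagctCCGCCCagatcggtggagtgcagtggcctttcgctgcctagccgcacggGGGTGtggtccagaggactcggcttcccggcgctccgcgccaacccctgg
Slc22a5: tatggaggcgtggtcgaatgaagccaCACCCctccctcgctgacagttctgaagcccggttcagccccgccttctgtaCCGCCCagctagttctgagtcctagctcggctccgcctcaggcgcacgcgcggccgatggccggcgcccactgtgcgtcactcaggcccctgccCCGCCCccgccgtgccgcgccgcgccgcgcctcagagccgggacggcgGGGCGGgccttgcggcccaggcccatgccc

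The windows are chr17:12583939-12584188 for Slc22a2, chr11:54028105-54028354 for Slc22a4 and chr11:53891704-53891953 for Slc22a5, printed in the direction of transcription. For Slc22a2 the RefSeq start lies downstream of the GENCODE start at 12584132. The end of its window, with the CACCC match at -15, thus lies within the gene as GENCODE places it. The promoters of the tandem pair were GC-rich: GC content was 71.2% for Slc22a4 and 73.6% for Slc22a5, higher than in 92.2% and 94.7% of 32851 mouse promoter windows of the same length, while Slc22a2 had 51.6%. The GC box was found 2 times before Slc22a4, beginning at positions -170 and -99 from the start, 3 times before Slc22a5, at -172, -78 and -30, and 0 times before Slc22a2. It was present in 32.7% of all windows. CACCC, present in 52.0% of all windows, was found 1 time before Slc22a2, 2 times before Slc22a4 and 1 time before Slc22a5. The motif AGGTCA of nuclear receptors, searched on both strands, was found 0 times in the 3 windows and in 14.02% of all windows. TATAAA was found 0 times here and in 12.4% of all windows. These are matches of letters and no measurement of binding.

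Values are counts per 10000 counts of a nucleus, averaged by the authors over the nuclei of 1 cluster and 1 mouse, and reads in introns are included. Slc47a1, Slc22a2 and Slc22a5 had their highest cluster means in the proximal tubule, the segment that begins at the glomerulus, and Slc22a4 was high in the ascending limb of the loop of Henle as well. Of 54 cell type markers, 49 were highest in the cluster of their own type. The clusters were made from the same expression values and named by the study's marker sheets. The count is therefore no independent check of the names. Scnn1g was listed for both CNT and CD_PC and could be highest in only 1 of them. The Slc47a1 level was 8.30 to 13.2 over the 5 normal PT clusters and 4 mice (20 values), and 0.653 to 4.67 over the 14 clusters outside the PT other than EC-1 and DCT_CNT (56 values), so these ranges did not overlap. In EC-1 and DCT_CNT, clusters that also held PT markers, it was 5.90 to 8.39. In EC-1 the median PT marker stood at 75.6% of its normal PT mean, and 4 of 4 endothelial markers were highest in EC-2 and next highest in Macrophage, so EC-1 is used here only as the name of a cluster. The normal PT range was 0.537 to 2.23 for Slc22a2, 0.701 to 2.55 for Slc22a4 and 0.763 to 3.18 for Slc22a5, and each of these overlapped the range outside the PT. Divided by genomic span, the mean level in normal PT was 3.03 per 10 kb for Slc47a1, 0.717 for Slc22a5, 0.313 for Slc22a2 and 0.267 for Slc22a4. When the 23 clusters were put in order of their mean level, 0 of 22 neighbouring pairs had ranges over the 4 mice that did not overlap, for each of the 4 members, so only distant clusters in the order were apart.

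**Figure D1:**
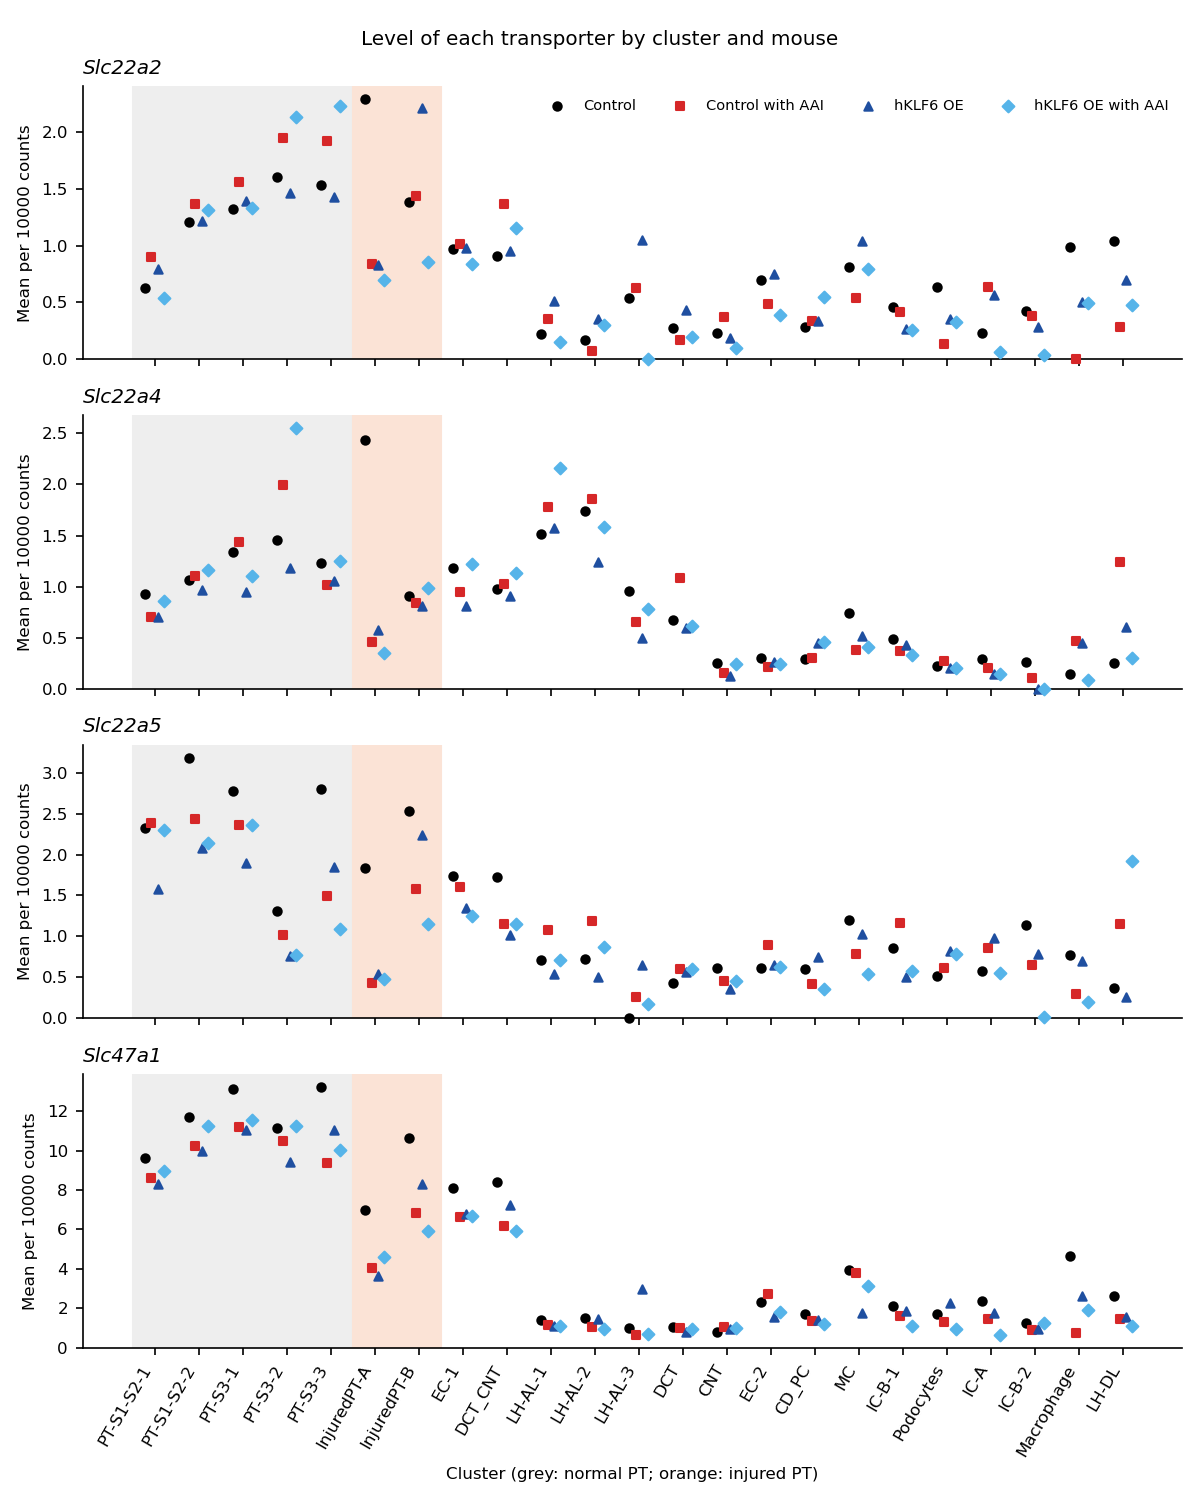
Level of each transporter (mean per 10000 counts of a nucleus, linear axis from 0, a separate scale for each gene) in 23 clusters, with 1 point for each of the 4 mice. Slc47a1 lies between 8.30 and 13.2 in the normal PT clusters (grey), and Slc22a4 is as high in LH-AL-1 and LH-AL-2 as in the PT.

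The plot of levels by cluster shows the division within the normal PT. Its clusters are named for the early segments S1 and S2 (PT-S1-S2-1 and PT-S1-S2-2) and for the late, straight segment S3 (PT-S3-1, PT-S3-2 and PT-S3-3). Below, the values of a gene in the 4 mice follow the order control, control with AAI, hKLF6OE and hKLF6OE with AAI.

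Slc22a2, the uptake transporter of the blood side, was highest in S3 clusters among the normal PT clusters. Its level was 0.628, 0.897, 0.795 and 0.537 in PT-S1-S2-1, and 1.61, 1.94, 1.46 and 2.13 in PT-S3-2. In PT-S3-3 it was 1.53, 1.92, 1.43 and 2.23. PT-S1-S2-1 was the lowest of the 5 normal PT clusters in 4 of 4 mice. The other early cluster, PT-S1-S2-2, at 1.21, 1.36, 1.22 and 1.31, was close to PT-S3-1, at 1.32, 1.56, 1.39 and 1.33. The mean of the 3 PT-S3 clusters exceeded the mean of the 2 PT-S1-S2 clusters by 0.38, 0.40, 0.27 and 0.59 on the scale log2(value + 1), which is 1.42 to 2.05 times as a ratio of levels. A gene was called higher or lower here when the difference reached 0.2 in every mouse compared, among genes with at least 0.5 on the larger side; by this rule Slc22a2 was called higher in S3 in 4 of 4 mice, as were 10.4% of the genes compared, and 12.4% were called lower. The clusters were made from the same expression values, so this is a description.

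Slc22a4 was likewise highest in PT-S3-2 and lowest in PT-S1-S2-1 among the normal PT clusters, in 4 of 4 mice. It was 1.45, 1.99, 1.18 and 2.55 in PT-S3-2, and 0.928, 0.706, 0.701 and 0.858 in PT-S1-S2-1. Slc22a5 ran the other way and was lowest in PT-S3-2 in 4 of 4 mice, at 1.31, 1.01, 0.763 and 0.778. Its level in PT-S1-S2-2 was 3.18, 2.43, 2.08 and 2.14, the highest of the normal PT in 3 of 4 mice. The ratio of Slc22a5 to Slc22a4 thus fell below 1 in PT-S3-2, where it was 0.903, 0.509, 0.647 and 0.305. In PT-S1-S2-1 it was 2.50, 3.37, 2.25 and 2.68, so the carnitine transporter exceeded its tandem neighbour in the early segments and was exceeded by it in this S3 cluster in each of the 4 mice. PT-S3-1, also named S3, had ratios of 1.64 to 2.14, and PT-S3-3 was below 1 in the hKLF6OE mouse with AAI, at 0.868. By the means of the segments, Slc22a4 in S3 was 1.27 to 1.63 times and Slc22a5 0.633 to 0.836 times the PT-S1-S2 level over the 4 mice. Neither gene reached the threshold in 4 of 4 mice with a pseudocount of 1, and both did with a pseudocount of 0.1. Slc22a5 spans fewer bases than Slc22a4, so these ratios compare clusters and are no ratio of molecules.

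**Figure D2:**
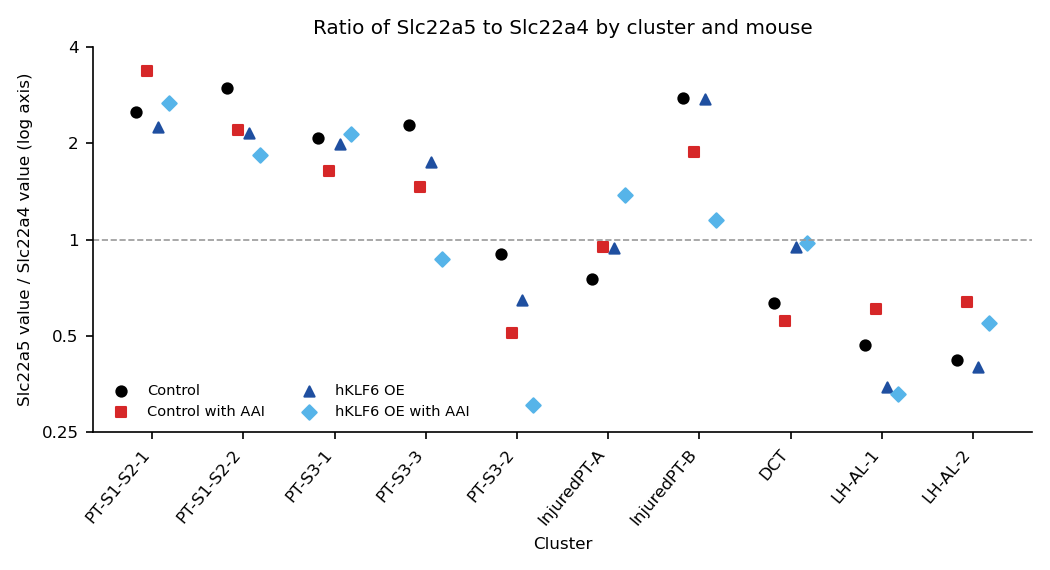
Ratio of the Slc22a5 level to the Slc22a4 level (log axis, dashed line at 1) in normal PT, injured PT and 3 distal clusters, with 1 point for each of the 4 mice. The ratio is below 1 in 4 of 4 mice in PT-S3-2, DCT, LH-AL-1 and LH-AL-2.

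Slc47a1, the exit transporter, varied least within the PT, by the ratio of the highest to the lowest of its 20 values. It was 13.1, 11.18, 11.02 and 11.5 in PT-S3-1 and 9.64, 8.61, 8.30 and 8.95 in PT-S1-S2-1, which was the lowest in 4 of 4 mice. The segments differed by 0.10 to 0.21 on the scale log2(value + 1), and the gene was not called.

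Reads of relatives can be shared. The longest stretch of identical bases between annotated transcripts was 361 bases for Slc22a5 and Slc22a21, 61 for Slc22a4 and Slc22a21, and 54 for Slc22a4 and Slc22a5. An exonic read that lies wholly within such a stretch cannot be assigned to 1 gene. Read length was not given in the sources used here, so how many reads this concerns is unknown. Introns were not compared. Slc22a21 itself was 0.171 to 0.203 in the normal PT mean of the 4 mice.

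Outside the PT, the highest level relative to the PT was that of Slc22a4 in the thick ascending limb. In this limb of the loop of Henle, which reabsorbs salt through Slc12a1, it was 1.51, 1.78, 1.57 and 2.16 in LH-AL-1 and 1.74, 1.86, 1.25 and 1.59 in LH-AL-2. That is 126 to 162% and 115 to 148% of the normal PT mean of the same mouse. PT transcripts were found in every cluster, so each member was set beside 18 PT marker genes measured in the same way. The median marker stood at 21.9% of its normal PT mean in LH-AL-1 and at 20.3% in LH-AL-2, averaged over the 4 mice, and Slc22a4, at 146% and 134%, stood above 18 of 18 markers there; by mouse it was above 16 to 18 of 18 in LH-AL-1 and 17 to 18 of 18 in LH-AL-2. Over the 16 clusters outside the PT, its median ratio to the marker median was 1.23, below the 1.35 of Slc22a5. It also exceeded the marker median in 4 of 4 mice in the distal convoluted tubule (DCT), at 61.9%, in LH-AL-3, at 60.2%, and in DCT_CNT and IC-B-1. In podocytes, at 18.8%, and EC-2, at 21.2%, it was below the marker median in 4 of 4 mice.

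Slc22a5 exceeded the marker median in 4 of 4 mice in LH-AL-1 (39.2%), LH-AL-2 (42.3%) and IC-B-1, an intercalated cell cluster (39.9%), but was below the highest markers there. Its level was 0.708, 1.08, 0.546 and 0.713 in LH-AL-1. Slc22a2 exceeded the marker median in 4 of 4 mice in 1 of 16 clusters, DCT_CNT, and in LH-AL-1 it stood at 22.4%, beside the median marker. Slc47a1 was below the marker median in 4 of 4 mice in 14 of 16 clusters. Across the 16 clusters its percent lay a median of 1.11 percentage points from that of Keg1, an abundant PT gene, and at most 5.59 points from it. Keg1 was the closest of the 18 markers to Slc47a1 by this median, so it is the best match and not a typical marker. How far PT RNA from other nuclei accounts for these levels was not tested.

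**Figure D3:**
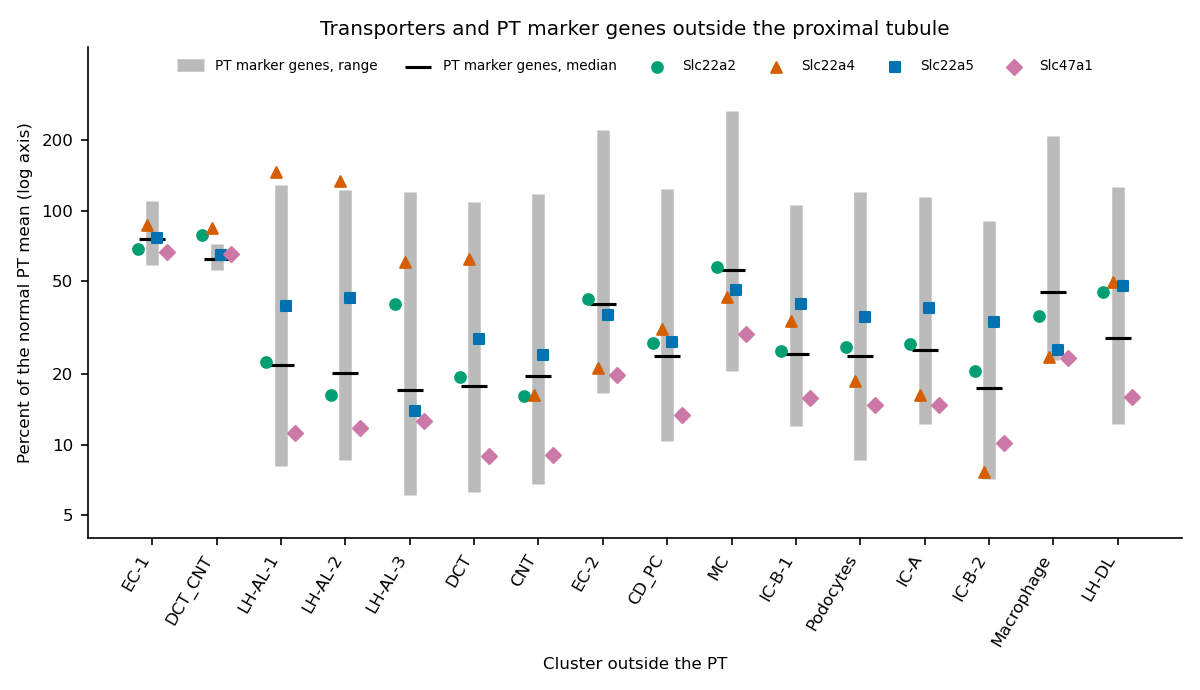
Level of each transporter in the 16 clusters outside the PT, as a percent of the normal PT mean of the same mouse (log axis, mean of 4 mice), beside the range and median of 18 PT marker genes. Slc22a4 stands above the whole marker range in LH-AL-1 and LH-AL-2, at 146% and 134%, and Slc47a1 lies in the lower part of the range in most clusters.

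The genes most like each member, by Pearson's r over the 23 cluster means on the scale log2(value + 1) among 8112 genes, separated the members in the same way. These values are descriptions over clusters that share libraries and PT RNA. Slc47a1 was closest to Keg1 (r = 0.995), the endocytic receptor Lrp2 (0.991), Hnf4aos, Slc6a20b and Pecr. Slc22a2 was closest to 0610043K17Rik (0.975), and Slco1a6 (0.967), Trim7 and Slc27a2 were also among its first 5. Slc22a5 was closest to the inositol transporter Slc5a11 (0.941), AC154546.2, the sulfate transporter Slc13a1 (0.928), Rufy3 and Gm16311. Slc22a4 had no neighbour as close: Mturn led at 0.879, followed by Flvcr2 (0.849), Dcun1d4, Prr15l and Gcnt2. Among the members, r was 0.93 between Slc22a2 and Slc47a1, 0.87 between Slc22a5 and Slc47a1, and 0.47 between the tandem genes Slc22a4 and Slc22a5.

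In injured PT, the members fell together in the cluster InjuredPT-A and less uniformly in InjuredPT-B. These clusters were compared with the mean of the 5 normal PT clusters in the same AAI-treated mouse. The normal PT means are themselves from mice with AAI. In InjuredPT-A, 4 of 4 members were called lower, as were 26.96% of the 5008 genes compared, while 43.3% were called higher. The median of all genes was shifted by 0.22 and 0.16 in this comparison on the scale log2(value + 1); with differences centred on that median, 1832 genes were lower and 1405 higher, against 1350 and 2167 without centring, and 4 of 4 members were lower with and without it. Injury marks were present: Polr2a and Klf6 were highest in InjuredPT-A and Cxcl1, Havcr1 and Krt20 in InjuredPT-B.

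Slc22a5 was 0.437 in InjuredPT-A against 1.93 in normal PT in the control mouse with AAI, and 0.479 against 1.73 in the hKLF6OE mouse with AAI. These are 0.226 and 0.276 of the normal level, differences of -1.03 and -0.89 on the scale log2(value + 1). Slc22a4 was 0.462 against 1.25 and 0.347 against 1.38, or 0.369 and 0.251 of the normal level (log2 differences -0.62 and -0.82). For these genes and for Slc47a1, InjuredPT-A lay below each of the 5 normal PT clusters in both AAI-treated mice.

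Slc47a1 was 4.06 against 9.98 and 4.62 against 10.6 in InjuredPT-A, or 0.407 and 0.437 of the normal level (log2 differences -1.12 and -1.04). Slc22a2 was 0.842 against 1.54 and 0.695 against 1.51, or 0.548 and 0.461 of the normal level (log2 differences -0.46 and -0.56). In the hKLF6OE mouse with AAI, its level in InjuredPT-A was above that in PT-S1-S2-1, so the groups overlapped there. Against the PT-S1-S2 clusters alone, its differences were -0.21 and -0.18 and it was not called. Against the PT-S3 clusters alone it stood at 0.466 and 0.367 of the normal level, and Slc47a1 at 0.392 and 0.423, so the order of the members depended on the reference.

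In InjuredPT-B, 2 of 4 members were called lower, Slc22a4 and Slc47a1, where 13.1% of the 4148 genes compared were called lower and 23.4% higher; the median of all genes was shifted by 0.12 in both mice, and centring gave 778 lower and 379 higher against 543 and 971. Slc47a1 was 6.83 against 9.98 and 5.94 against 10.6 (log2 differences -0.49 and -0.74), below each of the 5 normal PT clusters in both mice. Slc22a4 was 0.840 against 1.25 and 0.991 against 1.38 (log2 differences -0.29 and -0.26), yet within the range of the normal PT clusters. Slc22a5 was 1.58 against 1.93 and 1.15 against 1.73 (log2 differences -0.19 and -0.35) and Slc22a2 was 1.43 against 1.54 and 0.855 against 1.51 (log2 differences -0.06 and -0.43). Both passed the threshold only in the hKLF6OE mouse with AAI.

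**Figure D4:**
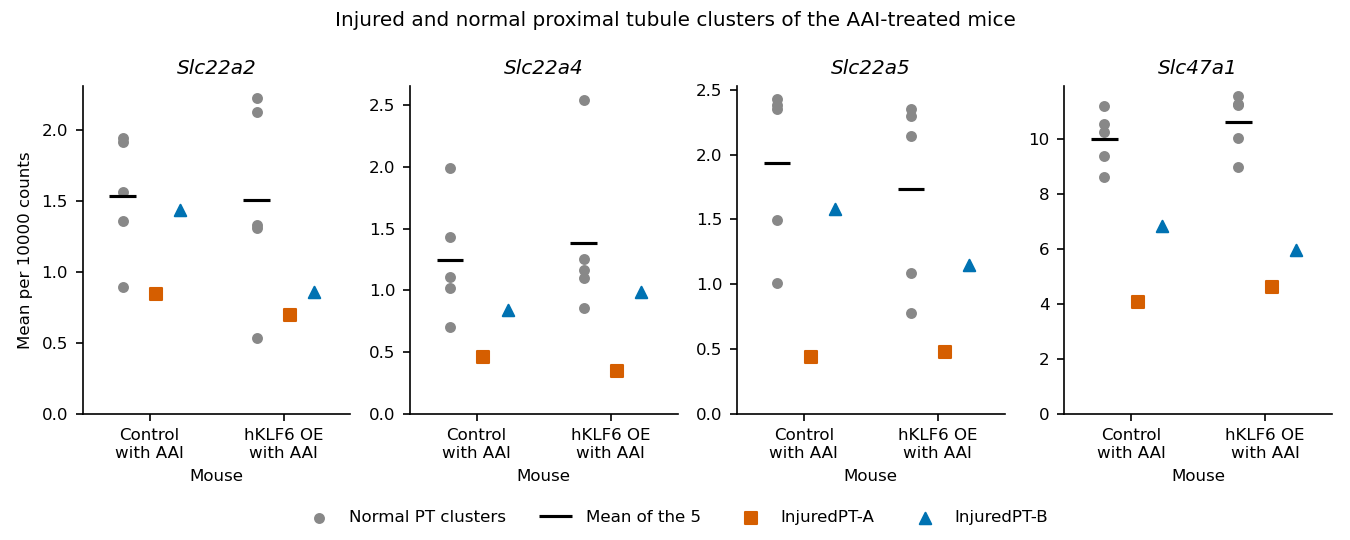
Level of each transporter (mean per 10000 counts of a nucleus, linear axis from 0) in the 2 AAI-treated mice, with grey points for the 5 normal PT clusters, a line at their mean, and a square and a triangle for InjuredPT-A and InjuredPT-B. InjuredPT-A lies below the normal mean for 4 of 4 members in both mice, and for Slc22a2 it overlaps the normal clusters in the hKLF6OE mouse.

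The injured clusters of the mice without AAI differed more. InjuredPT-A of the control mouse had the highest Slc22a2 and Slc22a4 levels of that mouse, 2.29 and 2.44, while in the hKLF6OE mouse without AAI they were 0.828 and 0.573. In the injured clusters of mice without AAI, 40.8 to 62.6% of genes were at 0, against 22.2 to 29.7% in those of the AAI-treated mice and 15.1 to 31.3% in normal PT, so these columns are sparse. The number of nuclei behind a column is not in the table.

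Genes of the same pathways were read from lists of transporters, carnitine genes, scaffolds and regulators, and a called change again means 0.2 or more in both AAI-treated mice. Of the other organic cation transporters, 6 of 15 in the table passed the filter in InjuredPT-A: 2 were lower and 2 higher. Slc16a9, a transporter linked to carnitine export, was 1.14 against 7.28 and 1.36 against 7.31 (log2 differences -1.95 and -1.82). The normal PT level of Slc16a9 was itself higher with AAI, at 7.28 against 3.65 in control and 7.31 against 4.32 in hKLF6OE mice. The thiamine transporter Slc19a2 was 0.837 against 0.192 and 0.738 against 0.189, higher by 0.62 and 0.55. It was below 0.5 in normal PT and passed the filter only through InjuredPT-A, so it could not have been called lower. The creatine transporter Slc6a8 was also higher. In InjuredPT-B, 1 of 5 was lower, again Slc16a9 (-1.06 and -1.64), and 0 were higher.

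The counts of genes that make and use carnitine stand beside the shares of all genes given above, 26.96% lower and 43.3% higher in InjuredPT-A. Of the carnitine synthesis genes, 1 of 2 that passed the filter was lower in InjuredPT-A, Tmlhe, the enzyme of the initial step (log2 differences -0.57 and -0.56), and 0 of 2 were called in InjuredPT-B. Of the carnitine shuttle, which moves long-chain fatty acids into mitochondria, 1 of 4 was higher in InjuredPT-A, Cpt2 (0.44 and 0.31), and 0 of 3 were called in InjuredPT-B. The median difference in InjuredPT-A was 0.11 and 0.02 for the shuttle genes, -0.83 and -0.85 for the 4 members, and 0.19 and 0.15 for the genes that passed the filter in both mice.

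Pdzk1, the brush border scaffold that binds OCTN transporters, was 1.73 against 6.61 and 2.29 against 7.82 in InjuredPT-A (log2 differences -1.48 and -1.43), and was lower in InjuredPT-B by -0.60 and -1.05. Its normal PT level was also higher with AAI, at 6.61 against 5.26 in control and 7.82 against 5.26 in hKLF6OE mice. Pdzk1 was 1 of 3 scaffolds called in each cluster. Of the regulators, 4 of 4 were lower in InjuredPT-A and 3 of 4 in InjuredPT-B. Ppara, the nuclear receptor of fatty acid oxidation and a known inducer of Slc22a5, was 1.43 against 10.7 and 1.30 against 8.02 in InjuredPT-A (-2.27 and -1.97). The normal PT level of Ppara was itself higher with AAI, at 10.7 against 5.10 in control and 8.02 against 4.92 in hKLF6OE mice. The normal PT mean of Slc22a5 was lower with AAI in control and not called in hKLF6OE mice. Over the 5 normal PT clusters, Slc22a5 was called lower in 3 and higher in 0 in control mice. In hKLF6OE mice it was called higher in 2 and lower in 1. A link of Ppara to Slc22a5 was not tested. The coactivator Ppargc1a differed by -0.62 and -0.61 in InjuredPT-A. Hnf4a, a nuclear receptor of epithelial cells, was lower in InjuredPT-A and, by -0.35 and -0.65, in InjuredPT-B.

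Of the organic anion transporters, 4 of 7 were lower and 2 higher in InjuredPT-A, and 4 of 6 were lower in InjuredPT-B. Slc22a6 (OAT1), the main blood-side uptake transporter of organic anions, went the other way from Slc22a2: it was 3.59 against 1.77 and 6.09 against 1.35 in InjuredPT-A (0.73 and 1.60). This was not particular to injured PT with AAI. Slc22a6 was 3.55 and 5.79 in InjuredPT-A of the control and hKLF6OE mice without AAI. In MC, a cluster outside the PT, it was 2.56, 2.23, 4.65 and 3.84, against normal PT means of 1.96, 1.77, 2.13 and 1.35. Slc22a28 was lower by -1.48 and -0.87. Of 18 PT marker genes, 15 were lower and 2 higher in InjuredPT-A, and 15 were lower and 0 higher in InjuredPT-B, with medians of -1.004 and -0.701 in InjuredPT-A and -0.70 and -0.84 in InjuredPT-B. The members' fall stood beside that of most PT markers, and a fall of transport genes in each nucleus and a lower share of PT RNA in a cluster cannot be told apart in these averages.

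In normal PT, the members called with AAI were not the same in the 2 genotypes, a difference that was not tested. In the control genotype, 2 of 4 members were lower with AAI, Slc22a5 and Slc47a1, where 11.25% of the 4052 genes compared were lower and 11.7% higher. The mean of the 5 normal PT clusters was 2.48 without and 1.93 with AAI for Slc22a5 (log2 difference -0.25), and 11.8 and 9.98 for Slc47a1 (-0.22). Slc22a2 was 1.26 and 1.54 (0.17) and Slc22a4 was 1.20 and 1.25 (0.03), neither called. With the median of the clusters, or with the PT-S1-S2 clusters alone, 0 of 4 members were lower, at -0.17 and -0.14 for Slc22a5.

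In the hKLF6OE genotype, 1 of 4 members was called, Slc22a4, at 0.969 without and 1.38 with AAI (0.28), where 19.5% of the 4133 genes compared were higher and 15.4% lower; centred on the median of all genes, 597 genes were higher and 793 lower, against 807 and 636. Slc22a2 was 1.26 and 1.51 (0.15), Slc22a5 was 1.63 and 1.73 (0.05), and Slc47a1 was 9.96 and 10.6 (0.08). The Slc22a4 call rested on PT-S3-2, where the difference was 0.70; it was 0.11 to 0.14 in the other 4 normal PT clusters.

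By cluster, 3 of 20 pairs of a member and a normal PT cluster were called the same way with AAI in both genotypes. These are given here with 1 cluster of the ascending limb that was chosen after its values were seen. In PT-S3-2, Slc22a4 went from 1.45 to 1.99 in control and from 1.18 to 2.55 in hKLF6OE mice (0.28 and 0.70), where 10.6% and 19.6% of genes were higher. In PT-S3-3, Slc22a5 went from 2.80 to 1.49 and from 1.84 to 1.09 (-0.61 and -0.45), where 18.6% and 20.97% of genes were lower, while Slc22a2 went from 1.53 to 1.92 and from 1.43 to 2.23 (0.21 and 0.41), where 22.97% and 29.1% were higher. In LH-AL-2, Slc22a5 went from 0.730 to 1.19 and from 0.4998 to 0.870 (0.34 and 0.32), where 22.2% and 26.3% were higher. The carnitine transporter was thus lower with AAI in this S3 cluster and higher in this cluster of the ascending limb in both genotypes. Of the genes that passed the filter in both genotypes, 10.95% were lower in both in PT-S3-3 and 14.9% higher in both. The share higher in both was 6.17% in PT-S3-2 and 8.52% in LH-AL-2.

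**Figure D5:**
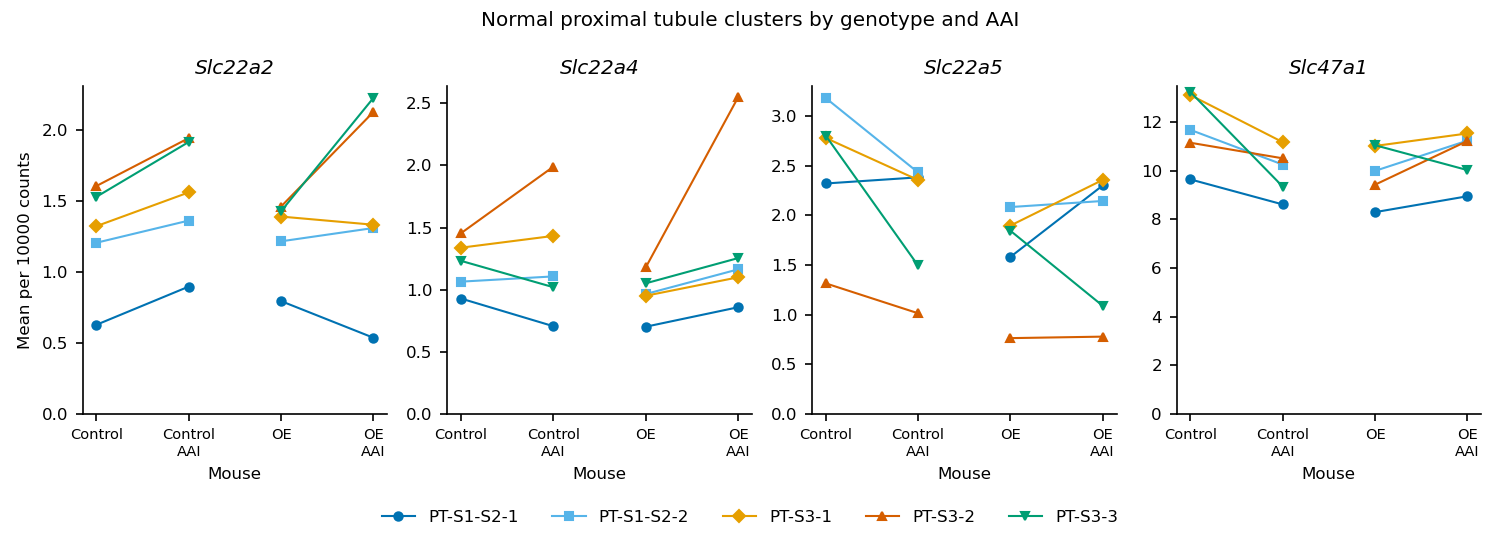
Level of each transporter (mean per 10000 counts of a nucleus, linear axis from 0) in the 5 normal PT clusters by mouse, with lines that join the same cluster without and with AAI in each genotype (OE, hKLF6OE). Slc22a5 is lower in the hKLF6OE than in the control mouse without AAI in 5 of 5 clusters, and Slc22a4 rises with AAI in PT-S3-2 in both genotypes.

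In the mice without injury, the carnitine transporter and part of the PT markers were lower with overexpression of KLF6. In normal PT, 2 of 4 members were lower in the hKLF6OE than in the control mouse, Slc22a5 and Slc47a1, where 9.33% of the 4041 genes compared were lower and 7.84% higher; centred on the median of all genes, 300 genes were lower and 377 higher, against 377 and 317, and 1 of 4 members was lower. The Slc22a5 mean was 1.63 against 2.48, or 0.659 of the control level (log2 difference -0.40). It was lower in 5 of 5 normal PT clusters, by -0.44 to -0.36, where 10.5% (PT-S3-1), 10.7% (PT-S1-S2-1), 12.4% (PT-S1-S2-2), 13.5% (PT-S3-2) and 12.3% (PT-S3-3) of genes were lower, and in PT-S1-S2-2 it was 2.08 against 3.18. Slc47a1 was 9.96 against 11.8, or 0.846 of the control level (-0.22), close to the threshold. Slc22a4 was 0.969 against 1.20 (-0.16) and Slc22a2 was 1.26 in both mice (0.00). Of 18 PT marker genes, 9 were lower and 2 higher in the same comparison, with a median of -0.18 beside -0.19 for the 4 members. Lrp2 was 14.4 against 21.7 and Keg1 54.05 against 84.3, or 0.662 and 0.641 of the control level, close to the 0.659 of Slc22a5. The part of a wider fall of PT transcripts in the lower Slc22a5 level was not tested.

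With AAI, 0 of 4 members were called between the genotypes in normal PT, where 7.74% of the 3942 genes compared were lower and 6.32% higher. Slc22a5 was 1.73 in the hKLF6OE and 1.93 in the control mouse with AAI (-0.10), and Slc22a4 was 1.38 and 1.25 (0.08). The control mouse without AAI thus had the highest normal PT means of Slc22a5 and Slc47a1 of the 4 mice, and it is a side of both the AAI and the genotype comparison, so these falls are not independent of each other. The table holds mouse Klf6 and not the human transgene, so the overexpression could not be checked on it.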

How the data were processed

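Nuclei of 4 mice were processed together as 1 technical batch (10x). The authors counted reads with Cell Ranger 3.1.0 on a mouse pre-mRNA reference (mm10), kept nuclei with 200 to 6000 genes and at most 10% mitochondrial genes, and clustered them in Seurat 4.3. Doublet removal was not given for these data in the sources used here. The deposited signal values are counts per nucleus scaled to 10000 and averaged by the authors over the nuclei of 1 cluster and 1 mouse, without a logarithm; this unit was read from the values, since each of 92 columns sums to 10000. The number of nuclei and the depth per column were not used here, as the table gives neither, so no interval is given for a value.

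Of 19632 rows, 23 with date-like names were left out. Cluster numbers were named by the order of the study's marker sheets; names of clusters such as InjuredPT-B and DCT_CNT rest on that order and on markers. Differences are of log2(value + 1), which understates changes of low genes, among genes with at least 0.5 on the larger side; a difference of 0.2 or more was called, in the same direction in every mouse compared. A gene below 0.5 on 1 side passed only through the side where it was higher. A level relative to its reference is a ratio of the signal values themselves. PT, injured, AAI and genotype comparisons share samples. There was 1 mouse per group, so no test was run and no p-value is given. The genes named are the 4 members, up to 3 genes of each list with the largest difference in each injured cluster, and the 5 genes most like each member by Pearson's r. Some genes that this rule names are not reported here. The members and lists were chosen with earlier results of these data known. In the tables of alternatives, a log2 value counts as moved when it shifts by 0.2 or more. The method was run on simulated data without noise, with planted changes well above the threshold. Such data hold no spread between nuclei or mice, so that run gives no error rate for the values here. Promoters came from RefSeq (GRCm38.p6), where 3 of 4 members matched; coordinates came from GENCODE M21. Python 3.11.15, numpy 2.4.6, pandas 2.3.3 and matplotlib 3.10.9 were used.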

Additional observations from a re-analysis of the deposited data

Results flagged for a closer look

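In 6 of 92 pairs of a member and a cluster, AAI went with a called change in opposite directions in the 2 genotypes; each side is 1 mouse against 1 mouse, the difference was not tested, and values are differences on the scale log2(value + 1). Slc22a2 changed by 0.22 in control and -0.22 in hKLF6OE mice in PT-S1-S2-1, and by 0.41 and -0.56 in IC-A. Slc22a4 changed by 0.83 and -0.30 in LH-DL, and by -0.25 and 0.25 in LH-AL-3, clusters where 42.5 to 63.4% of genes were at 0. Slc22a5 changed by 0.24 and -0.35 in IC-A. Slc47a1 changed by -0.66 and 0.28 in InjuredPT-A, whose columns from mice without AAI were sparse. Among all genes that passed the filter in both genotypes, the share called in opposite directions was 3.20% in PT-S1-S2-1, 12.3% in IC-A, 25.3% in LH-DL, 31.5% in LH-AL-3 and 7.24% in InjuredPT-A.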

How the results depend on the processing

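Of 128 counts of members called under an alternative, 108 lay within 1.5 times the main count, 14 were lower and 6 higher. In InjuredPT-A, 4 of 4 members were lower under 8 of 11 alternatives; 1 was at a minimum value of 2, and 3 were at a threshold of 0.5 or with the PT-S1-S2 clusters as the reference, where Slc22a2 was not called (-0.21 and -0.18 in the latter). In InjuredPT-B, 1 member was lower at a minimum value of 2, 0 at a threshold of 0.5 and 4 in the hKLF6OE mouse with AAI alone. With AAI in the control genotype, 0 members were lower at a threshold of 0.5, with the PT-S1-S2 clusters alone or with the median of the clusters, and 1 was higher with a pseudocount of 0.1. In the hKLF6OE genotype, 2 were higher with a pseudocount of 0.1 or the PT-S3 clusters alone, and 0 at a minimum value of 2, a threshold of 0.5, with the PT-S1-S2 clusters alone or the median. Between genotypes without AAI, 0 were lower at a threshold of 0.5 and 1 with centring. Between PT-S3 and PT-S1-S2, a pseudocount of 0.1 gave 2 higher and 1 lower, and a minimum value of 2 or a threshold of 0.5 gave 0 higher. Against the mouse without AAI, Slc22a4 in InjuredPT-B of the hKLF6OE mouse with AAI reversed to 0.016. Stricter filters and thresholds call fewer genes by construction; otherwise the cause was not tested.

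Of the 5 genes most like each member, 2 for Slc22a2, 1 for Slc22a4, 0 for Slc22a5 and 3 for Slc47a1 were kept when r was taken over the 92 columns, and a pseudocount of 0.1 kept 2 for Slc22a5 and 3 for Slc47a1. No paired analysis was possible because each group has 1 mouse. For the same reason leaving out a replicate was not run. Without counts or numbers of nuclei, the precision of low values, such as those of Slc22a2 outside the PT, is unknown.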

Other observations

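Outside the PT, Slc47a1 was lower with AAI in both genotypes in 8 of 16 clusters and higher in 0, by the same rule of 0.2 on the scale log2(value + 1). Among all genes that passed the filter in both genotypes, 5.94 to 17.3% were lower in both in these 8 clusters. Slc22a2 was lower in 1 cluster and higher in 0, Slc22a5 was lower in 3 and higher in 2, and Slc22a4 was called the same way in 0 of 16. Among the 18 PT marker genes measured in these clusters, the number lower in both genotypes ranged from 0 to 16 with a median of 7: Keg1 was lower in 14 and Slc34a1, the phosphate transporter, in 16, while the sulfate transporter Slc13a1 was higher in 13. The part of PT RNA from other nuclei in these changes was not tested.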
